A study of Mus musculus with 38 samples.

Results

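Dermal P1 monocytes, the Ly6C-high cells of mouse ear skin that do not yet carry MHC class II, were compared with the Ly6C-high monocytes of blood. The comparison uses 6 of the 38 arrays of the study, the 3 titled as P1 and the 3 titled as Ly6C monocytes of blood, all at steady state and chosen by those titles alone. Both groups came from untreated wild-type C57BL/6 females aged 6 weeks. P1 was sorted from ear dermis as live CD11b+ cells that were CD24-, low for CD64, high for Ly6C, positive for CCR2 and MHC class II-. The blood cells were sorted only as live CD11b+ cells high for Ly6C. For reference, P1 was also set against 15 arrays of 5 other untreated dermal groups, which are the Ly6C-high and Ly6C-low MHC class II+ monocytes P2 and P3, the macrophages P4 and P5, and CD11b+ dendritic cells. Each array is a separate pool of mice, with 5000 to 10000 cells giving 5 to 20 ng of RNA that was amplified before hybridisation. Values are log2 intensities, a difference is P1 minus blood on that scale with its standard error (SE), and p-values come from limma with adjustment over 19937 genes and a call under 0.05. A level under 4.02, the 40th percentile of all values, is termed low signal, and a difference from such a level has no exact size.

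Classical monocytes leave the bone marrow through CCR2, circulate for a short time and enter tissues, where they can stay monocytes or turn into macrophages and antigen-presenting cells. Type I interferons signal through a receptor of the chains IFNAR1 and IFNAR2 to transcription factors that bind interferon response elements in the promoters of antiviral genes. Microbial products and interleukin-1 act through IkB kinases, which release NF-kB from its inhibitors and so induce cytokines, chemokines and the inhibitors themselves.

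Ear skin was digested with dispase and collagenase 4 and enriched on Percoll, whereas no digestion is stated for blood, so the population, its tissue and the preparation cannot be told apart in this comparison. In such bulk samples, fewer cells of a type and less RNA per cell cannot be told apart either. Of 19937 genes, 1038 were higher in P1 (5.21%) and 1482 lower (7.43%), 12.6% in all, and 25.3% had arrays that did not overlap between the groups (11% higher and 14.3% lower). The list counts against blood given below are to be read beside these shares. The median difference over all genes was 0.01. Array medians lay between 4.46 and 4.49 in blood and between 4.52 and 4.65 in P1. Correlation between replicates was 0.967 to 0.973 in blood and 0.931 to 0.945 in P1. With array medians centred, the median difference was -0.09 and 29.1% of the called genes were higher, against 41.2% here.

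RNA of other skin cells was present in the P1 arrays and uneven among them. The mean of 48 fibroblast genes was 4.50, 4.48 and 4.54 in blood and 5.75, 9.14 and 6.31 in P1, so that replicate 2 of P1 stood far above replicates 1 and 3. The mean of 42 keratinocyte genes was 4.36, 4.24 and 4.40 in blood and 5.44, 5.96 and 5.87 in P1, higher in all 3 P1 arrays and without a single outlying one. The main list counts below are therefore given with and without replicate 2 of P1, whose omission left 761 genes higher (3.82%) and 1284 lower (6.44%). A gene was set apart as following skin cell RNA when it sat on a list of another cell type or had an r of 0.6 or more, over the 32 arrays outside this comparison, with the keratinocyte or fibroblast mean. Of the 1038 higher genes, 562 were not set apart, and of the 1482 lower genes 1373. The remainder were 72 higher and 9 lower genes on the lists and 404 higher and 100 lower by their r. Those 32 arrays include lymph node groups as well as dermal ones, so a gene that differs between these tissues can also reach this r. For example, the fibroblast gene Bgn averaged 5.42 in untreated lymph node dendritic cells and 7.23 in untreated dermal CD11b+ dendritic cells. Ccl7 averaged 4.46 and 9.51 there. That r also takes in macrophage genes which vary with skin cell RNA across the 32 arrays, so it marks a gene and does not assign it.

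**Figure D1:**
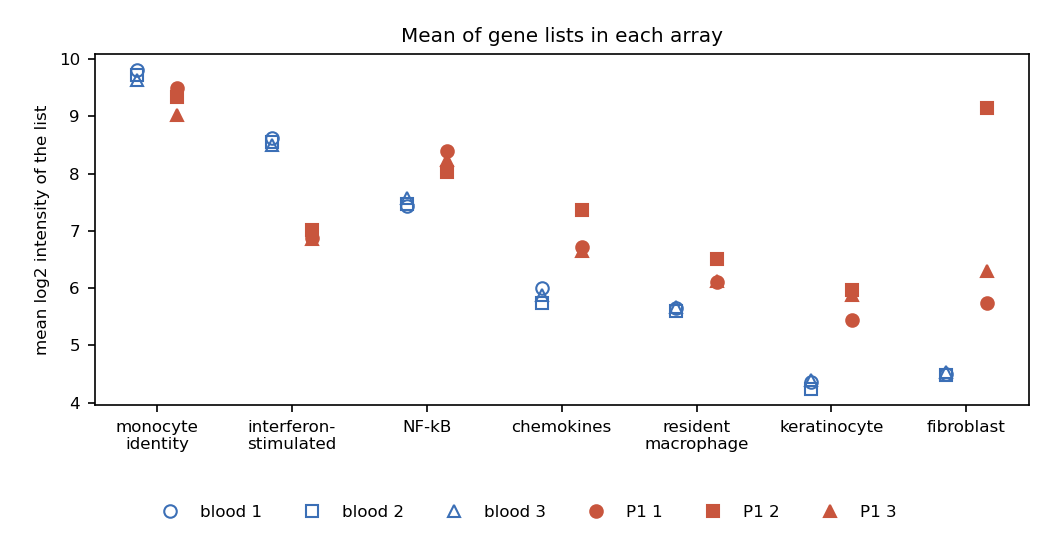
Each point is the mean log2 intensity (vertical axis) of one gene list in one array, open blue for blood and filled red for P1, with symbols for replicates 1 to 3. Interferon-stimulated genes lie near 8.56 in blood replicate 2 and 7.01 in P1 replicate 2 with no overlap of the groups, whereas the fibroblast list shows P1 replicate 2 apart at 9.14.

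Most genes that define a blood monocyte were not called different in P1, but the list leaned lower, and Cx3cr1 and several genes of Ly6C-low monocytes were called lower. Of 33 monocyte genes measured, 1 was higher in P1 than in blood, 8 were lower and 24 were not called. The median difference was -0.58 against 0.01 over all genes, of which 5.21% were higher and 7.43% lower. In 17 of the 33 all P1 arrays lay below all blood arrays and in 2 above, against 14.3% and 11% of all genes. Without replicate 2 of P1 1 was higher and 4 were lower. Plac8, a small cysteine-rich protein gene of monocytes and granulocytes, measured 12.13, 12.12 and 11.86 in the blood arrays and 12.07, 11.86 and 11.72 in the P1 arrays. The arrays of both groups overlapped, and the difference was -0.16 (SE 0.62, adjusted p = 0.93). Hp, which encodes the haemoglobin scavenger haptoglobin, differed by -0.58 (SE 0.31, adjusted p = 0.27), Chil3, a chitinase-like protein gene, by -0.36 (SE 0.52) and Vcan, the proteoglycan versican, by 0.55 (SE 0.32), none of them called. F10, which encodes coagulation factor X, and Fn1, fibronectin, were not called either, at 0.03 and -0.44.

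The 1 monocyte gene that rose was Cd14, the co-receptor that hands lipopolysaccharide to TLR4. It was set apart by its r with the skin cell means. Its log2 intensities were 9.14, 8.24 and 9.97 in the blood arrays and 11.71, 11.66 and 11.66 in the P1 arrays. All P1 arrays lay close together above the scattered blood arrays, and Cd14 rose by 2.56 (SE 0.26, adjusted p = 2.5e-08), 5.91-fold. Cx3cr1, the receptor for the membrane chemokine fractalkine, measured 10.94, 10.93 and 10.72 in the blood arrays and 9.39, 9.12 and 9.48 in the P1 arrays. Every P1 array was below every blood array, and the gene fell by 1.53 (SE 0.27, adjusted p = 0.00017). Treml4, a receptor of the TREM family found on Ly6C-low monocytes, fell by 1.38 (SE 0.33, adjusted p = 0.0052), Ace, the angiotensin-converting enzyme, fell by 1.17 (SE 0.34), Pou2f2, the transcription factor OCT2, fell by 1.15 (SE 0.27), and Itgal, the integrin chain of LFA-1, fell by 0.87 (SE 0.26). Without replicate 2 of P1 the adjusted p of Itgal was 0.068, that of Spn, the sialomucin CD43, went from 0.036 to 0.07, and that of Csf3r, the G-CSF receptor, from 0.034 to 0.084.

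Genes of the sort markers followed the gates in part. Fcgr1, the gene of CD64, for which P1 was gated low and blood not gated, measured 9.47, 9.25 and 9.45 in the blood arrays and 7.94, 7.70 and 8.50 in the P1 arrays, lower in each P1 array, and fell by 1.35 (SE 0.34, adjusted p = 0.0077). Ccr2, the receptor for the monocyte attractant CCL2, measured 10.95, 11.07 and 10.94 in the blood arrays and 10.23, 10.06 and 10.14 in the P1 arrays. All P1 arrays were lower, but the call at adjusted p = 0.041 was lost without replicate 2 of P1 (0.11). None of the 10 measured genes of MHC class II presentation was called lower, while the P1 gate excluded cells with MHC class II protein. H2-Eb1, a beta chain, differed by 0.02 (SE 0.13, adjusted p = 0.96) and Cd74, the invariant chain, by 0.04 (SE 0.11). H2-Ab1, the other beta chain, measured 9.42, 9.15 and 9.18 in the blood arrays and 10.41, 9.47 and 9.91 in the P1 arrays, above blood in every P1 array, and rose by 0.68 (SE 0.15, adjusted p = 0.0022). It was the 1 called gene of that list, whose median was 0.01. Cd24a measured 7.34, 7.71 and 6.07 in the blood arrays and 8.86, 9.02 and 8.63 in the P1 arrays. It rose by 1.80 (SE 0.49, adjusted p = 0.013) although P1 was gated as CD24-, and blood was not gated on CD24. Probe sets of the Ly6c genes carry several symbols and were not tested.

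Interferon-stimulated genes formed the broadest difference among the lists of myeloid genes. Of 54 measured, 0 were higher in P1 and 44 were lower, with a median difference of -1.59. Without replicate 2 of P1 40 were lower, 43 of the 44 were not set apart by skin cell RNA, and the list means were 8.63, 8.56 and 8.50 in blood against 6.88, 7.01 and 6.85 in P1. Usp18, a protease that strips ISG15 from proteins and blocks the interferon receptor, measured 8.81, 8.36 and 8.48 in the blood arrays and 4.86, 5.12 and 4.79 in the P1 arrays. The groups were far apart and tight, a 12.4-fold difference. Cmpk2, a mitochondrial nucleotide kinase, measured 6.81, 6.52 and 6.94 in the blood arrays and 4.16, 4.09 and 4.08 in the P1 arrays. Its P1 arrays lay just above low signal and its blood arrays well above, and it fell by 2.65 (SE 0.17, adjusted p = 4.1e-12).

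Ifit1, Ifit2, Ifit3 and Ifit3b fell, members of a family whose proteins bind viral RNA and block its translation. Ifit1 measured 8.08, 7.62 and 7.41 in the blood arrays and 4.84, 5.13 and 3.78 in the P1 arrays. All P1 arrays were lower and they spread more than the blood arrays, and Ifit1 fell by 3.12 (SE 0.56, adjusted p = 0.00023). P1 replicate 3 was at low signal, so that size is not exact. Ifit3 measured 10.35, 10.15 and 10.35 in the blood arrays and 7.70, 7.89 and 7.04 in the P1 arrays, again with no overlap, and fell by 2.74 (SE 0.44, adjusted p = 6.6e-05). Ifit3b, a near copy of Ifit3 whose transcripts may share probes with it, reached low signal in P1 (3.03, 2.95 and 2.71). Among genes of the OAS family, whose enzymes make the second messenger for RNase L, Oas2 fell by 1.91 (SE 0.31, adjusted p = 6.2e-05), Oas1a fell by 1.57 (SE 0.25) and Oasl2 fell by 2.00 (SE 0.30). Oasl1, a translational inhibitor of Irf7, was not called (-0.63, adjusted p = 0.46).

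Several restriction factors and nucleic acid sensors of the interferon programme were lower too. Mx1, a dynamin-like GTPase against influenza virus, measured 6.88, 7.54 and 6.83 in the blood arrays and 6.07, 5.53 and 6.09 in the P1 arrays. Its P1 arrays lay below its blood arrays by a small margin, and Mx1 fell by 1.19 (SE 0.31, adjusted p = 0.0086). That call was lost when replicate 2 of P1 was left out (adjusted p = 0.057). Rsad2, the antiviral radical enzyme viperin, fell by 1.53 (SE 0.29, adjusted p = 0.00046), and Eif2ak2, the RNA-activated kinase PKR, fell by 1.70 (SE 0.36, adjusted p = 0.0016). Zbp1, a sensor of Z-form nucleic acid, fell by 1.65 (SE 0.27, adjusted p = 6.5e-05) and Samd9l, a restriction factor of poxviruses, fell by 2.53 (SE 0.41, adjusted p = 7.5e-05). Slfn1, a Schlafen family gene, measured 11.03, 10.83 and 11.20 in the blood arrays and 8.99, 8.68 and 8.70 in the P1 arrays and fell by 2.23 (SE 0.50), and its relatives Slfn5 and Slfn8, which have close copies, differed by -1.83 and -1.75. Among the p200 genes for DNA-binding proteins, Ifi206 measured 8.96, 8.79 and 8.95 in the blood arrays and 5.85, 5.06 and 5.97 in the P1 arrays with no overlap, while Ifi213 fell by 2.77 (SE 0.46, adjusted p = 9.9e-05) and Ifi209 fell by 2.00 (SE 0.43, adjusted p = 0.0017). Ifi27l2a, one of the genes not called, measured 12.37, 12.42 and 12.17 in the blood arrays and 12.17, 12.19 and 12.14 in the P1 arrays, nearly level in both groups, and Ms4a4c, Isg20 and Bst2 differed by -0.85, -0.60 and -0.66, of which only Bst2, the tetherin that holds virus particles at the cell, was called (adjusted p = 0.036, 0.15 without replicate 2 of P1).

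Printed here are promoter stretches of IFIT genes and Rsad2, since these genes fell and hold a match to the interferon response element. Sequences are from RefSeq for GRCm38.p6, written 5′ to 3′ in the direction of the gene, and capitals mark matches to GAAA, any 2 bases and GAAA on either strand, here all as the reverse complement. The windows are chr19:34640765-34640833 on the plus strand for Ifit1, chr19:34583353-34583436 on the plus strand for Ifit3 and chr12:26456543-26456592 on the minus strand for Rsad2.
Ifit1: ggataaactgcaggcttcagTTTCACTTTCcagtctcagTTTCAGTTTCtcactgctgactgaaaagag
Ifit3: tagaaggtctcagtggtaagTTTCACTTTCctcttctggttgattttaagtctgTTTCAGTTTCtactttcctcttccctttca
Rsad2: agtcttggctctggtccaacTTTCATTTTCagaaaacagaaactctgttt
Ifit1 and Ifit3 hold 2 matches each, between bases 104 and 76 and between bases 156 and 113 before the start, and Rsad2 holds 1 between bases 120 and 111. The stretch of Ifit3b is identical in letters to that of Ifit3. Within 250 bases before the start, the pattern occurred in 17 of 43 interferon-stimulated genes with a promoter sequence (39.5%). These were 15 of the 34 that fell and 2 of the 9 not called. It occurred in 4 of 23 sensors and signalling genes (Stat2 and Irf2, which fell, and Socs1 and Ifna4, not called). Of 4 interferon-inducible GTPases 4 held it, of which Gbp7 was not called. It was also found in 2 of 20 chemokines (Cxcl14, which rose, and Cxcl10, not called). Of 25 interleukins and growth factors 3 held it (Vegfa, which rose, and Il19 and Tnfsf13b, not called). Of 26 NF-kB genes 0 held it. Over all 15613 genes it occurred in 531 (3.4%). It was found for 65 of 1223 genes lower in P1 (5.31%) and for 19 of 791 higher (2.4%). A match describes these letters and is no evidence of binding.

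Sensors of viral nucleic acid and genes that carry the interferon signal were in part lower in P1. Of 28 sensors and signalling genes 12 were lower, 1 was higher and the median difference was -0.65, and without replicate 2 of P1 9 were lower. Dhx58, the RNA sensor LGP2, measured 7.48, 8.01 and 7.55 in the blood arrays and 5.38, 5.33 and 5.65 in the P1 arrays, lower in all P1 arrays, and fell by 2.23 (SE 0.29, adjusted p = 2.5e-06). Ifih1, the sensor MDA5, fell by 1.61 (SE 0.34, adjusted p = 0.0014), and Irf7, which amplifies interferon gene transcription, fell by 1.51 (SE 0.43, adjusted p = 0.017), with an adjusted p of 0.052 without replicate 2 of P1. Stat2, the STAT that is specific to this pathway, fell by 1.35 (SE 0.28, adjusted p = 0.0014) and Tyk2, a kinase at the receptor, fell by 1.37 (SE 0.31, adjusted p = 0.0034). Irf2, a repressor of interferon response elements, measured 9.73, 9.53 and 9.58 in the blood arrays and 8.68, 8.25 and 7.88 in the P1 arrays, and fell by 1.34 (SE 0.18, adjusted p = 4.2e-06). Ifnar1, a chain of the type I receptor, measured 8.53, 8.53 and 8.40 in the blood arrays and 8.72, 8.56 and 8.10 in the P1 arrays. These overlapped, and the difference was -0.02 (SE 0.18, adjusted p = 0.97), with Ifnar2, the other chain, not called either (0.03). Both chains of the interferon gamma receptor were lower, Ifngr1 with a difference of -0.67 and Ifngr2 with -0.75, the latter call lost without replicate 2 of P1 (0.063). Ifnb1, interferon beta itself, was at low signal on average in both groups.

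The 1 signalling gene that rose was Socs3, an inhibitor of JAK kinases that is induced by STAT3. It was set apart by its r with the skin cell means. Its log2 intensities were 6.42, 6.52 and 6.95 in the blood arrays and 10.16, 9.94 and 9.56 in the P1 arrays. All P1 arrays lay far above the blood arrays, and Socs3 rose by 3.26 (SE 0.22, adjusted p = 7.4e-12), 9.56-fold. Among 9 measured interferon-inducible GTPases, which attack pathogen vacuoles, 4 fell and 0 rose. Irgm1, which guards host membranes, fell by 2.47 (SE 0.49, adjusted p = 0.0009), and Gbp3 and Gbp9, guanylate-binding proteins, differed by -1.67 and -1.74. In MHC class I presentation, which interferon also raises, 5 of 17 fell and 0 rose (5 and 0 without replicate 2 of P1). Psmb9, a subunit of the immunoproteasome, measured 11.03, 10.75 and 10.99 in the blood arrays and 9.81, 9.43 and 9.50 in the P1 arrays. P1 was lower in each array, and Psmb9 fell by 1.35 (SE 0.16, adjusted p = 3.5e-07). Tap1, which pumps peptides into the endoplasmic reticulum, fell by 1.03 (SE 0.22, adjusted p = 0.0014), and H2-T24, a non-classical class I gene, fell by 2.47 (SE 0.30, adjusted p = 7.6e-07). With the keratinocyte and fibroblast means of each array as covariates, 13 interferon-stimulated genes, 0 sensors and 0 GTPases were lower, among 192 lower genes in all. Over all genes that fit called 449, against 2520 in the main fit. Both means were higher in every P1 array than in every blood array, so the fit separates them poorly from the group difference. A call lost with the covariates, here and below, therefore does not tie a gene to skin cell RNA.

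**Figure D2:**
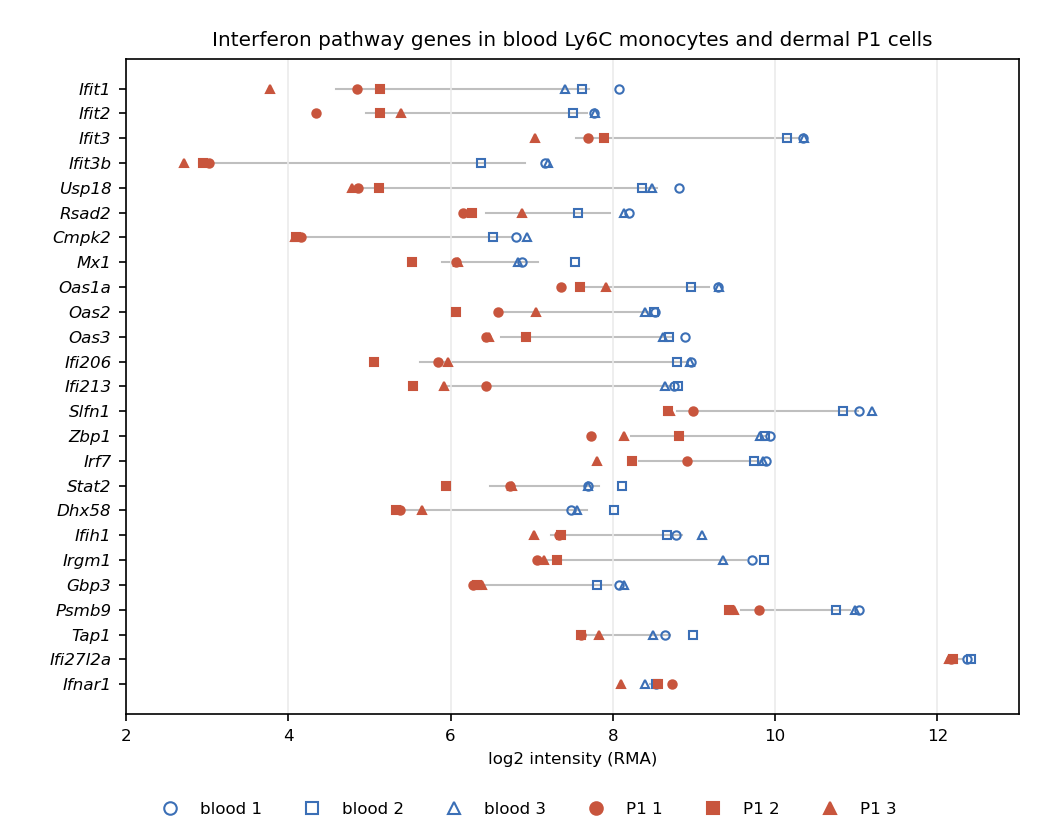
Log2 intensity (horizontal axis) of 25 interferon pathway genes in each blood array (open blue) and P1 array (filled red), with a grey line between group means. Usp18 and Cmpk2 sit apart in the groups, whereas Ifnar1 and Ifi27l2a overlap or lie close.

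Sensors of microbes moved in both directions. Of 33 pattern recognition and inflammasome genes 14 were lower in P1 and 5 higher, a median of -0.67 (13 and 5 without replicate 2 of P1, 0 and 2 with the covariates). Of the 5 higher, 1 was not set apart. Of the nucleic acid receptors of endosomes, Tlr3 was not called and was at low signal in P1. Tlr7 fell by 1.83 (SE 0.39, adjusted p = 0.0015), Tlr8 fell by 1.92 (SE 0.39, adjusted p = 0.00089), and Tlr9 fell by 0.97 (SE 0.23, adjusted p = 0.004). Unc93b1, which carries these receptors to endosomes, fell by 0.63 (SE 0.17, adjusted p = 0.015). Tlr8 measured 7.79, 7.59 and 7.50 in the blood arrays and 5.53, 5.73 and 5.84 in the P1 arrays, separate in every array. Tlr1, a partner of TLR2 for bacterial lipopeptides, fell by 1.95 (SE 0.62, adjusted p = 0.034), and Cd180, a TLR4-like receptor, fell by 1.28 (SE 0.23, adjusted p = 0.00032). Nod1, a sensor of peptidoglycan in the cytosol, fell by 1.64 (SE 0.37, adjusted p = 0.0028). Naip2 and Naip5, receptors of flagellin and bacterial secretion systems, differed by -1.22 (SE 0.21) and -1.21 (SE 0.32), and their partner Nlrc4 fell by 1.08 (SE 0.28), the DNA sensor Aim2 fell by 1.08 (SE 0.30) and Pycard, the adaptor ASC, fell by 0.67 (SE 0.17). The Naip genes are close copies whose probes may share transcripts, and Naip5 was not called without replicate 2 of P1 (0.07).

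Receptors and relays for surface lipids, sugars and danger signals were among the genes that rose. Tlr2 measured 9.05, 8.90 and 9.15 in the blood arrays and 10.32, 10.03 and 9.92 in the P1 arrays. Each P1 array exceeded each blood array, and Tlr2 rose by 1.05 (SE 0.20, adjusted p = 0.00043). Mefv, which encodes the inflammasome sensor pyrin, measured 7.21, 7.11 and 7.08 in the blood arrays and 9.57, 9.03 and 9.11 in the P1 arrays, with no overlap, and rose by 2.10 (SE 0.31, adjusted p = 2.1e-05). Irak2, a kinase that sustains TLR signals, rose by 1.37 (SE 0.26, adjusted p = 0.00051) and Nlrp3 by 0.74 (SE 0.19, adjusted p = 0.0081). Clec4e, the receptor Mincle for mycobacterial glycolipid, measured 8.08, 7.95 and 8.31 in the blood arrays and 10.89, 10.78 and 10.87 in the P1 arrays, again separate, and rose by 2.73 (SE 0.28, adjusted p = 3e-08). Clec4d, its partner, rose by 2.84 (SE 0.28, adjusted p = 1.6e-08), and Clec4n, dectin-2 for fungal mannan, by 1.83 (SE 0.44, adjusted p = 0.0048). Trem1, an amplifier of TLR responses on monocytes and neutrophils, measured 6.43, 6.13 and 6.19 in the blood arrays and 9.92, 9.44 and 8.10 in the P1 arrays. P1 arrays were uneven but all higher, and Trem1 rose by 2.90 (SE 0.41, adjusted p = 8.1e-06). Fcgr4, a receptor for IgG2, fell by 1.42 (SE 0.46, adjusted p = 0.037). In the list of scavenger and phagocytic receptors 7 of 36 rose and 4 fell (6 and 5 without replicate 2 of P1). Of these 7 rises, 3 were not set apart.

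Part of the secreted mediators of inflammation were higher in P1. Of 38 interleukins and growth factors 15 were higher, 3 lower and 20 not called (median 0.35), 10 and 1 without replicate 2 of P1 and 7 and 0 with the covariates. Of the 15 higher, 6 were not set apart, while Il6, Il1a, Il1b, Il10, Tnf, Tnfsf9 and Vegfa were set apart by an r of 0.6 or more with the skin cell means. Il6, a cytokine of acute inflammation, measured 2.91, 3.07 and 2.83 in the blood arrays and 8.12, 8.96 and 8.15 in the P1 arrays. Blood was at low signal in all arrays and P1 high in all, with replicate 2 the highest (adjusted p = 8.1e-10). Tnfsf9, the ligand of the T cell costimulator 4-1BB, measured 4.27, 3.94 and 4.25 in the blood arrays and 9.64, 8.77 and 9.23 in the P1 arrays. The groups were fully separate, and Tnfsf9 rose by 5.06 (SE 0.32, adjusted p = 2.4e-12). Blood replicate 2 was at low signal, so that size is not exact. Il1b, which encodes interleukin-1 beta, measured 8.24, 6.76 and 8.66 in the blood arrays and 11.18, 10.85 and 10.88 in the P1 arrays. Blood replicate 2 was lowest, P1 was higher throughout, and Il1b rose by 3.08 (SE 0.31, adjusted p = 2.9e-08), 8.47-fold. Il1a and Il10, the latter a brake on macrophages, were also at low signal in blood and reached 6.99, 7.76 and 7.22 (Il1a) and 8.07, 8.51 and 7.91 (Il10) in P1. Tnf, tumour necrosis factor, rose by 1.96 (SE 0.27, adjusted p = 6.3e-06) and Lif, a cytokine of the interleukin-6 family, by 1.95 (SE 0.47, adjusted p = 0.0049).

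Vegfa, which drives vessel growth and permeability, measured 6.04, 5.94 and 6.63 in the blood arrays and 9.53, 9.31 and 8.72 in the P1 arrays. P1 exceeded blood in every array, and Vegfa rose by 2.98 (SE 0.25, adjusted p = 1.2e-09), 7.89-fold. The growth factor Igf1 rose by 2.40 (SE 0.45, adjusted p = 0.00048), with P1 arrays at 6.30, 8.29 and 6.57. Csf1, the macrophage growth factor, measured 5.57, 5.20 and 5.45 in the blood arrays and 6.18, 8.44 and 6.23 in the P1 arrays. Only replicate 2 of P1 was far above blood, and without it the difference was 0.80, adjusted p = 0.25. The same loss of the call held for Tgfb3 (0.84, adjusted p = 0.062), Hbegf, an EGF-like growth factor (0.99, adjusted p = 0.16), and Il1rn, the interleukin-1 receptor antagonist (0.64, adjusted p = 0.18). The genes that fell were Il15, which maintains NK cells and memory T cells (-1.67, SE 0.56, adjusted p = 0.048), Tnfsf10, the death ligand TRAIL, at low signal in P1, and Ebi3, a subunit shared by interleukin-27 and interleukin-35 (-0.77, SE 0.23, adjusted p = 0.024). Without replicate 2 of P1, Il15 and Ebi3 were not called (0.09 and 0.054). Il18 was not called (-1.26, adjusted p = 0.095).

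Several chemokines rose, among them attractants of neutrophils and monocytes. Of 29 measured 12 rose, 0 fell and 17 were not called, a median of 0.50, 8 and 1 without replicate 2 of P1 and 6 and 0 with the covariates. Only 2 of the 12 were not set apart, and Cxcl1, Cxcl2, Cxcl3, Ccl3, Ccl4 and Ccl7 were set apart. Cxcl2, a ligand of CXCR2 on neutrophils, measured 7.80, 6.85 and 9.23 in the blood arrays and 11.66, 11.51 and 11.42 in the P1 arrays. Blood was scattered, P1 tight and higher, and Cxcl2 rose by 3.57 (SE 0.36, adjusted p = 3.6e-08), 11.9-fold. Cxcl1, another ligand of CXCR2, measured 6.08, 5.84 and 6.39 in the blood arrays and 9.18, 9.19 and 8.89 in the P1 arrays, separate by over 2 log2 units (adjusted p = 4.9e-09), and Cxcl3 rose by 1.92 (SE 0.38, adjusted p = 0.00068). Ccl7, a ligand of CCR2, measured 4.95, 4.62 and 4.78 in the blood arrays and 7.94, 10.56 and 9.58 in the P1 arrays. P1 was uneven, with replicate 1 lowest, and entirely above blood (adjusted p = 1.6e-08). Ccl2, the chief ligand of CCR2, overlapped between the groups and was not called (0.41, SE 0.33, adjusted p = 0.55). Cxcl16, a membrane-bound scavenger and CXCR6 ligand, measured 6.87, 4.84 and 5.62 in the blood arrays and 8.82, 8.20 and 9.07 in the P1 arrays and rose by 2.92 (SE 0.27, adjusted p = 7.6e-09). Ccl4, a chemokine for monocytes and T cells, rose by 1.97 (SE 0.48, adjusted p = 0.0054), and Ccl3 by 1.35 (SE 0.37, adjusted p = 0.013), the latter call lost without replicate 2 of P1 (0.073). Interferon-inducible Cxcl10 was not called (-1.02, SE 0.46, adjusted p = 0.17) but was lower without replicate 2 of P1 (-1.53, adjusted p = 0.038). The rises of Cxcl12, Cxcl14 and Ccl11, made by fibroblasts among others, lost their calls without replicate 2 of P1 (differences of 0.70, 0.87 and 1.36).

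Some NF-kB inhibitors and feedback genes also rose. Of 30 measured 13 rose, 8 of them not set apart, 1 fell and 16 were not called, a median of 0.45, 14 and 0 without replicate 2 of P1 and 7 and 0 with the covariates. Nfkbia, the inhibitor IkB alpha, measured 10.95, 10.35 and 10.77 in the blood arrays and 11.71, 11.62 and 11.73 in the P1 arrays. All P1 arrays were higher, and Nfkbia rose by 1.00 (SE 0.18, adjusted p = 0.00019). Nfkbib and Nfkbie, further inhibitors, rose by 0.88 (SE 0.16) and 1.72 (SE 0.20). Tnfaip3, the ubiquitin-editing brake A20, measured 8.85, 8.37 and 8.97 in the blood arrays and 10.03, 9.98 and 9.63 in the P1 arrays, separate between groups, and rose by 1.15 (SE 0.22, adjusted p = 0.00046). Its binding partner gene Tnip3 rose by 3.54 (SE 0.38, adjusted p = 8.1e-08). Zc3h12a, a nuclease that degrades cytokine messages, rose by 1.30 (SE 0.25, adjusted p = 0.00058), and Traf1, a signal adaptor of TNF receptors, by 2.36 (SE 0.37, adjusted p = 4.9e-05). Of the subunits, Rel measured 9.51, 9.75 and 9.28 in the blood arrays and 10.74, 10.55 and 10.65 in the P1 arrays and rose by 1.14 (SE 0.20, adjusted p = 0.00018), whereas Nfkb2 and Relb of the second branch were not called (0.44 and 0.81). Ikbke, an IkB kinase relative that also activates IRF3, fell by 0.82 (SE 0.24, adjusted p = 0.024), a call lost when replicate 2 of P1 was left out (0.23). Gadd45b, a stress adaptor for p38 and JNK, rose by 2.90 (SE 0.28, adjusted p = 1.6e-08).

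Promoters of mediators that rose are shown for the kappaB site, again from RefSeq for GRCm38.p6 and written along the gene. Capitals mark matches to GGGA, any base and TTTCC on either strand. The windows are chr5:30013050-30013099 for Il6, chr5:90891154-90891203 for Cxcl1 and chr5:90903782-90903831 for Cxcl2, all on the plus strand, and chr12:55492648-55492696 on the minus strand for Nfkbia.
Il6: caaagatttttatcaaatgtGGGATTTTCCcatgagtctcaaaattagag
Cxcl1: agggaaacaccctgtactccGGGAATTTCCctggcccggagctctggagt
Cxcl2: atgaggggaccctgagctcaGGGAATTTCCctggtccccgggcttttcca
Nfkbia: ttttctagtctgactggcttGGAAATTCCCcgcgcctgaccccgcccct
The matches begin 44, 71, 97 and 29 bases before the start of Il6, Cxcl1, Cxcl2 and Nfkbia. The pattern occurred in 3 of 20 chemokine promoters, those of Cxcl1, Cxcl2 and Cxcl3, all of which rose. It occurred in 2 of 25 interleukins and growth factors, Il6 and Csf1, both among the 10 with a promoter that rose. Of 26 NF-kB genes 3 held it. These were Nfkbia, 1 of 13 that rose, and Nfkb2 and Cyld, 2 of 12 not called. It also occurred in 2 of 23 interferon sensors and signalling genes (Ifngr2, which fell, and Tlr3, which was not called). In addition it was found in 1 of 4 interferon-inducible GTPases (Gbp5, which fell) and in 0 of 43 interferon-stimulated genes. Over all 15613 genes it occurred in 72 (0.461%), over the higher genes in 10 of 791 (1.26%) and over the lower ones in 4 of 1223 (0.327%). These are descriptions of letters in a window of 250 bases, and no match says nothing of the factor.

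**Figure D3:**
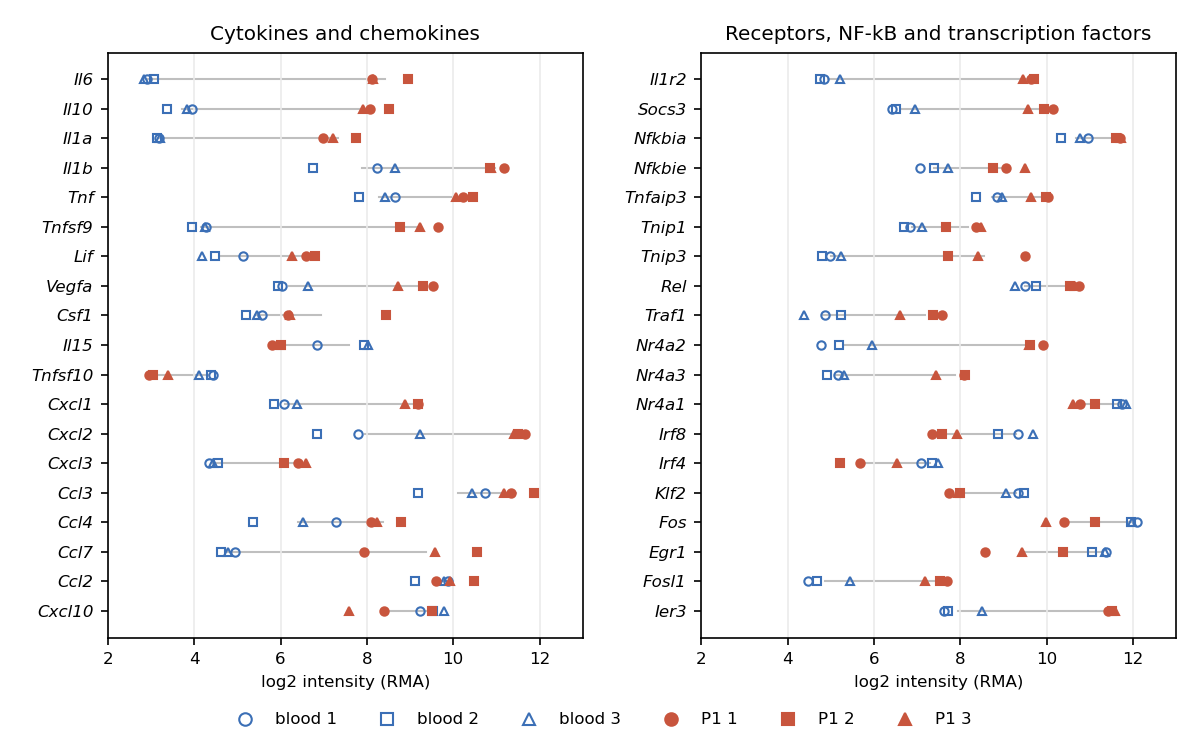
Log2 intensity (horizontal axes) of cytokines and chemokines (left) and of receptors, NF-kB genes and transcription factors (right) in each blood array (open blue) and P1 array (filled red), with a grey line between group means. Il6 and Tnfsf9 lie far apart, Ccl2 and Cxcl10 overlap, and for Csf1 only replicate 2 of P1 is far from blood.

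Receptors for cytokines moved in both directions. Of 32 measured 3 rose and 7 fell, a median of -0.14, 2 and 2 without replicate 2 of P1. All 3 rises were of genes set apart. Il1r2, the decoy receptor that captures interleukin-1, measured 4.84, 4.74 and 5.21 in the blood arrays and 9.65, 9.71 and 9.45 in the P1 arrays. Both groups were tight and far apart, and Il1r2 rose by 4.67 (SE 0.24, adjusted p = 2.7e-14), 25.5-fold. Il1r2 is also a neutrophil gene, and among 21 neutrophil markers it was the 1 that rose, while Lcn2, Csf3r and Mmp8 fell. The mean of these markers was 5.00, 5.01 and 4.91 in blood and 5.11, 5.02 and 4.92 in P1. Tnfrsf21, the death receptor DR6, measured 9.67, 9.86 and 9.88 in the blood arrays and 8.08, 8.21 and 8.21 in the P1 arrays, with P1 lower in all arrays, and fell by 1.64 (SE 0.24, adjusted p = 1.9e-05). Il6ra, the interleukin-6 receptor, and Tnfrsf1b, TNF receptor 2, differed by -0.85 and -0.60, calls that were lost without replicate 2 of P1 (0.16 and 0.14). For chemoattractant receptors 7 of 31 rose and 4 fell (6 and 3 without replicate 2 of P1), and 2 of the 7 rises were not set apart. Ccr1, which binds CCL3 and CCL7, measured 5.05, 5.04 and 5.62 in the blood arrays and 7.86, 7.23 and 7.06 in the P1 arrays. It was higher in every P1 array and rose by 2.15 (SE 0.36, adjusted p = 9e-05). C3ar1 and C5ar1, receptors of the complement fragments C3a and C5a, rose by 2.51 (SE 0.31, adjusted p = 1.1e-06) and 1.72 (SE 0.33, adjusted p = 0.00065). Hcar2, a receptor of niacin and ketone bodies, rose by 2.90 (SE 0.36, adjusted p = 1.3e-06), and Cxcr4, the receptor of CXCL12, by 0.75 (SE 0.14, adjusted p = 0.00063). S1pr5 and S1pr4, which sense sphingosine 1-phosphate, differed by -1.69 (SE 0.26, adjusted p = 4.1e-05) and -0.83 (SE 0.20, adjusted p = 0.0052).

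Adhesion genes moved in both directions, 7 of 38 up and 9 down with a median of 0.01 (5 and 7 without replicate 2 of P1). Among the 9 that fell, Selplg, the P-selectin ligand, fell by 0.71 (SE 0.20, adjusted p = 0.017), and Itga4, the alpha chain of VLA-4, fell by 0.96 (SE 0.25, adjusted p = 0.0099). Itgb7, which pairs with that alpha chain in an integrin other than VLA-4, fell by 0.88 (SE 0.23, adjusted p = 0.0096). Tln1, the integrin activator talin, fell by 0.79 (SE 0.16, adjusted p = 0.00095). Itga4 measured 10.64, 10.89 and 10.76 in the blood arrays and 10.06, 9.85 and 9.51 in the P1 arrays, lower in every P1 array. Among the 7 that rose, Itga5, the fibronectin receptor chain, measured 7.53, 7.90 and 7.73 in the blood arrays and 9.09, 9.07 and 8.97 in the P1 arrays, separate in all arrays, and rose by 1.32 (SE 0.21, adjusted p = 5.9e-05). Icam1 rose by 0.98 (SE 0.18, adjusted p = 0.00025) and Ninj1, an adhesion and membrane rupture protein, by 1.68 (SE 0.31, adjusted p = 0.00036). Cd63, a tetraspanin of late endosomes and platelet granules, measured 3.21, 3.74 and 4.59 in the blood arrays and 9.69, 10.67 and 10.49 in the P1 arrays. Its blood mean was at low signal, P1 was high in all arrays, and Cd63 rose (adjusted p = 7.5e-16).

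Transcription factors of the myeloid lineage split, 16 of 48 up and 8 down (median 0.21), 15 and 8 without replicate 2 of P1, with 6 of the rises not set apart. Irf8, which specifies monocytes and dendritic cells, measured 9.33, 8.87 and 9.68 in the blood arrays and 7.34, 7.58 and 7.92 in the P1 arrays. P1 was lower in each array, and Irf8 fell by 1.68 (SE 0.24, adjusted p = 1e-05). Irf4, a factor of alternative activation and dendritic cells, fell by 1.50 (SE 0.29, adjusted p = 0.0005), Klf2, a factor of quiescence, fell by 1.40 (SE 0.24, adjusted p = 0.00016), and Cebpa, a factor of granulocyte and monocyte progenitors, fell by 1.13 (SE 0.17, adjusted p = 3e-05). Spi1, which encodes PU.1, and Cebpb were not called (-0.33 and 0.10). Nr4a2, an orphan nuclear receptor, measured 4.78, 5.20 and 5.95 in the blood arrays and 9.93, 9.63 and 9.60 in the P1 arrays. It was far higher in all P1 arrays and rose by 4.41 (SE 0.26, adjusted p = 6.4e-13), 21.2-fold. Its relative Nr4a3 rose by 2.75 (SE 0.30, adjusted p = 1.3e-07), while Nr4a1, which Ly6C-low monocytes need, measured 11.75, 11.64 and 11.84 in the blood arrays and 10.77, 11.13 and 10.62 in the P1 arrays and fell by 0.90 (SE 0.24, adjusted p = 0.012). Id3, an inhibitor of E proteins, rose by 3.07 (SE 0.33, adjusted p = 8.4e-08), Bhlhe40, a repressor in activated macrophages, by 2.78 (SE 0.29, adjusted p = 6.2e-08), and Myc by 2.74 (SE 0.29, adjusted p = 9.6e-08). Etv3 and Ets2, factors of the ETS family, rose by 2.52 (SE 0.22) and 2.71 (SE 0.22), and Hif1a, the hypoxia factor, by 0.98 (SE 0.22, adjusted p = 0.0026).

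Immediate early genes, which answer stimuli within minutes and also tissue dissociation, moved in both directions. Of 42 measured 16 rose and 9 fell, a median of 0.39 (15 and 9 without replicate 2 of P1), and 8 of the rises were not set apart. Fos measured 12.10, 11.95 and 11.99 in the blood arrays and 10.40, 11.13 and 9.99 in the P1 arrays. It was lower in all P1 arrays, with replicate 2 the nearest to blood, and fell by 1.50 (SE 0.24, adjusted p = 6.1e-05). Egr1, a zinc finger factor, measured 11.38, 11.05 and 11.35 in the blood arrays and 8.58, 10.38 and 9.44 in the P1 arrays, also lower throughout with a wide spread in P1, and fell by 1.79 (SE 0.29, adjusted p = 7.2e-05). Dusp6, a phosphatase that shuts off ERK, measured 10.09, 10.18 and 9.91 in the blood arrays and 7.46, 7.40 and 6.68 in the P1 arrays, and fell by 2.88 (SE 0.38, adjusted p = 3.3e-06), 7.37-fold. Ier2 and Btg2 differed by -1.49 (SE 0.31) and -1.28 (SE 0.19). In the other direction Fosl1, which encodes FRA-1, rose by 2.60 (SE 0.29, adjusted p = 1.7e-07) and Fosb by 1.30 (SE 0.26, adjusted p = 0.00074). Rgs1, which dampens chemokine receptor signals, measured 4.59, 4.74 and 4.94 in the blood arrays and 8.95, 9.22 and 8.14 in the P1 arrays, separate by over 3 log2 units, and rose by 4.01 (SE 0.27, adjusted p = 1.4e-11), 16.1-fold. Ier3, a stress gene of the NF-kB pathway, measured 7.62, 7.71 and 8.50 in the blood arrays and 11.43, 11.53 and 11.58 in the P1 arrays, tight and high in P1, and rose by 3.57 (SE 0.18, adjusted p = 2.7e-14). Atf3, induced by many stresses, overlapped between groups at high levels in both (-0.11, adjusted p = 0.9), and Jun was not called (-0.35).

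Some genes of metal binding and oxidative defence rose. Of 35 measured 13 rose, 2 fell and 20 were not called, a median of 0.45, 12 and 2 without replicate 2 of P1 and 8 and 1 with the covariates, and 2 of the 13 rises were not set apart. Mt2 and Mt1 encode metallothioneins, which bind zinc and copper. Mt1 measured 8.23, 7.29 and 8.14 in the blood arrays and 10.85, 10.77 and 10.50 in the P1 arrays, separate in all arrays, and rose by 2.82 (SE 0.20, adjusted p = 1.9e-11), 7.05-fold. Mt2 measured 5.86, 5.16 and 4.65 in the blood arrays and 11.05, 11.97 and 11.13 in the P1 arrays. Both were set apart by their r with the skin cell means. Slc7a11, the cystine importer, was at low signal in the mean of blood and measured 8.67, 7.53 and 6.17 in P1, highest in replicate 1. Srxn1 and Txnrd1, which repair oxidised thiols under NRF2, rose by 1.97 (SE 0.24, adjusted p = 1.1e-06) and 1.47 (SE 0.20, adjusted p = 5.4e-06), and Sqstm1, the autophagy receptor p62, by 1.62 (SE 0.14, adjusted p = 1.6e-09). Hmox1, which degrades haem, was not called (0.87, SE 0.35, adjusted p = 0.11).

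Glycolysis and hypoxia genes gave 9 rises and 5 falls among 37 (median 0.05) (9 and 3 without replicate 2 of P1). Slc2a1, the glucose transporter GLUT1, rose by 1.21 (SE 0.25, adjusted p = 0.0014), and Pfkfb3, which drives phosphofructokinase, by 1.28 (SE 0.27, adjusted p = 0.0018). Hilpda, a lipid droplet gene of hypoxia, measured 5.44, 5.26 and 5.39 in the blood arrays and 8.05, 7.86 and 8.21 in the P1 arrays, separate in all arrays, and rose by 2.68 (SE 0.24, adjusted p = 3e-09). Aldoa, aldolase, and Ddit4, an inhibitor of mTORC1, differed by -0.55 (SE 0.18, adjusted p = 0.035) and -1.51 (SE 0.27, adjusted p = 0.00023). Respiratory chain genes gave 0 rises and 2 falls among 44 (median -0.20). In the unfolded protein and heat shock list 8 of 32 rose and 2 fell. Atf4, the effector of the integrated stress response, rose by 1.36 (SE 0.16, adjusted p = 5.8e-07), and Hspb1, a small heat shock protein, by 2.64 (SE 0.34, adjusted p = 2.1e-06). Hspa1a, a classic heat shock gene, was not called (0.72, SE 0.32, adjusted p = 0.16).

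Some macrophage genes and genes of activated antigen-presenting cells were higher in P1. Of 34 resident macrophage genes 7 rose and 1 fell, a median of 0.29 (6 and 1 without replicate 2 of P1). Mrc1, the mannose receptor, measured 5.65, 5.28 and 6.50 in the blood arrays and 8.64, 7.72 and 8.12 in the P1 arrays. P1 was above blood in all arrays, and Mrc1 rose by 2.35 (SE 0.31, adjusted p = 4.4e-06). C1qb, a chain of complement C1q, measured 5.44, 4.92 and 4.41 in the blood arrays and 7.33, 6.92 and 8.12 in the P1 arrays and rose by 2.53 (SE 0.45, adjusted p = 0.00022). Cd163, the haemoglobin receptor of macrophages, stayed near low signal in both groups (3.87, 3.93 and 4.09 in the blood arrays and 4.27, 4.32 and 4.15 in the P1 arrays). Siglec1, an interferon-inducible sialic acid receptor of macrophages, measured 8.83, 8.16 and 8.19 in the blood arrays and 6.32, 6.51 and 7.09 in the P1 arrays. It was lower in every P1 array and fell by 1.76 (SE 0.37, adjusted p = 0.0017). Gas6, a ligand that bridges dying cells to macrophages, lost its call without replicate 2 of P1 (1.17, adjusted p = 0.062). In the alternative activation list 8 of 24 rose and 0 fell (7 and 0 without replicate 2 of P1). Arg2, the mitochondrial arginase, measured 4.33, 3.79 and 4.48 in the blood arrays and 7.35, 7.09 and 6.67 in the P1 arrays. It was separate in all arrays and rose by 2.84 (SE 0.37, adjusted p = 2.8e-06). Blood replicate 2 was at low signal, so that size is not exact. Tgm2, transglutaminase 2, rose by 2.20 (SE 0.31, adjusted p = 9.4e-06). Mgl2 and Retnla, typical of dermal macrophages, were at low signal in blood and not called.

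Of 25 maturation and costimulation genes 8 rose and 1 fell (median 0.43) (8 and 0 without replicate 2 of P1). Cd83, a marker of mature dendritic cells, measured 7.54, 6.70 and 7.21 in the blood arrays with its lowest P1 array at 10.04, separate by over 2 log2 units, and rose by 3.41 (SE 0.25, adjusted p = 8.6e-11). Cd274, the inhibitory ligand PD-L1, rose by 1.45 (SE 0.27, adjusted p = 0.00044), and Marcksl1, an actin regulator, by 1.44 (SE 0.24, adjusted p = 7.6e-05). Cd40, a receptor for T cell help, overlapped and was not called (-0.25, adjusted p = 0.63). Abca1, the cholesterol exporter, rose by 2.58 (SE 0.25, adjusted p = 1e-08) and Lipa, the lysosomal acid lipase, fell by 1.53 (SE 0.32, adjusted p = 0.0013). Gla, lysosomal alpha-galactosidase, measured 7.02, 7.88 and 7.04 in the blood arrays and 10.40, 9.97 and 10.02 in the P1 arrays. P1 was higher in each array, and Gla rose by 2.81 (SE 0.21, adjusted p = 6.8e-11), 7.03-fold.

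Matrix proteases, coagulation genes and their inhibitors rose in 15 of 41 members and fell in 2, 11 and 2 without replicate 2 of P1 and 4 and 0 with the covariates, and 4 of the rises were not set apart. Mmp19, a metalloproteinase of basement membrane, measured 6.61, 6.85 and 5.67 in the blood arrays and 9.56, 9.21 and 9.66 in the P1 arrays. All P1 arrays were higher, and Mmp19 rose by 3.10 (SE 0.25, adjusted p = 5.3e-10), 8.57-fold. Mmp14, a membrane-bound collagenase, rose by 2.80 (SE 0.38, adjusted p = 5.1e-06), highest in replicate 2 of P1, and Adam8, a leukocyte sheddase, by 2.20 (SE 0.25, adjusted p = 2e-07). Thbs1, thrombospondin 1, measured 9.77, 9.57 and 10.53 in the blood arrays and 11.80, 11.83 and 11.93 in the P1 arrays and rose by 1.90 (SE 0.29, adjusted p = 3.3e-05). Timp1 and Timp2, inhibitors of these enzymes, lost their calls without replicate 2 of P1 (0.33 and 0.32). Mmp8, the neutrophil collagenase, fell by 1.27 (SE 0.31, adjusted p = 0.0063). Ptgs2, the inducible cyclooxygenase COX-2, measured 5.91, 5.12 and 8.47 in the blood arrays and 10.53, 11.11 and 10.85 in the P1 arrays. Blood replicate 3 stood above the other two, all P1 arrays were higher, and Ptgs2 rose by 4.33 (SE 0.50, adjusted p = 3.4e-07), 20.1-fold. Cysltr1, a leukotriene receptor, and Hpgd, which inactivates prostaglandins, differed by -1.58 (SE 0.32, adjusted p = 0.0011) and -1.43 (SE 0.33, adjusted p = 0.0037).

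Of the purine receptors, P2rx7 and P2ry6, which bind ATP and UDP, differed by -1.56 (SE 0.37, adjusted p = 0.0047) and -1.63 (SE 0.32, adjusted p = 0.00063), and in all 3 of 15 purine genes fell and 0 rose. Bcl2l11, the death gene BIM, rose by 1.58 (SE 0.26, adjusted p = 7.2e-05), and Cflar, which blocks caspase-8, by 1.24 (SE 0.21, adjusted p = 0.0001), among 5 rises and 4 falls of 26 survival genes (4 and 3 without replicate 2 of P1). Mlkl, the pore of necroptosis, fell by 1.59 (SE 0.45, adjusted p = 0.018). Mki67, a marker of cycling cells, measured 4.93, 5.47 and 5.09 in the blood arrays and 6.30, 6.68 and 6.38 in the P1 arrays, a little higher in all P1 arrays, and rose by 1.29 (SE 0.25, adjusted p = 0.00059), whereas the mitotic genes Top2a, Cdk1 and Bub1 were not called, Bub1 at low signal in both groups, Top2a at low signal in blood and Cdk1 just above it in both. In all 4 of 39 proliferation genes rose and 1 fell (3 and 1 without replicate 2 of P1). Eicosanoid genes gave 2 rises and 3 falls among 27, lipid genes 4 and 4 among 39, lysosomal genes 7 and 2 among 43 and complement genes 5 and 0 among 20. Over all genes 5.21% were higher and 7.43% lower, and a count near those shares says nothing about its list.

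**Figure D4:**
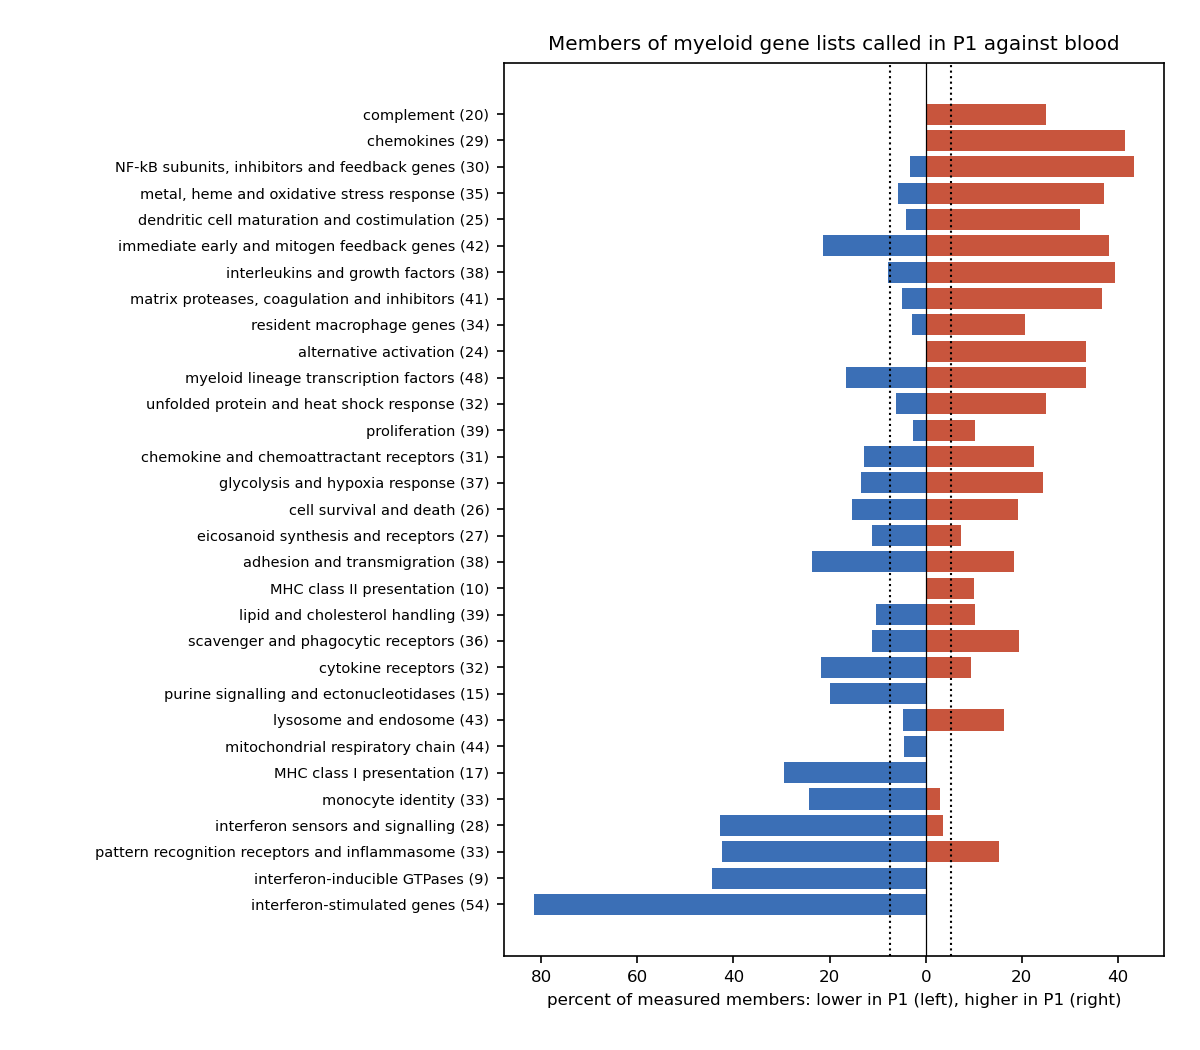
Percent of the measured members (number in brackets) of each myeloid list that were lower (blue, to the left) or higher (red, to the right) in P1 than in blood at an adjusted p under 0.05, ordered by median difference. Dotted lines mark the shares over all 19937 genes, 7.43% lower and 5.21% higher, and the interferon-stimulated list reaches furthest to the left with 44 of 54.

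By size, outside all lists as well, the ranked rises that were not set apart included Uck2, a uridine kinase, which measured 5.39, 6.19 and 7.34 in the blood arrays and 9.93, 9.94 and 10.34 in the P1 arrays and rose by 3.76 (SE 0.42, adjusted p = 2e-07). Blood was uneven there and P1 tight and higher. Gcsh, of the glycine cleavage system, rose by 3.03 (SE 0.38, adjusted p = 1.9e-06). Nedd4, a ubiquitin ligase, Prnp, the prion protein gene, and Gstm5, a glutathione transferase at low signal in blood and at 6.18, 9.25 and 3.83 in P1, rose too, Nedd4 by 2.96 (SE 0.45, adjusted p = 2.5e-05) and Prnp by 2.87 (SE 0.53, adjusted p = 0.00038). All 3 were highest in replicate 2 of P1, and without it the differences of Nedd4 and Prnp were 2.09 and 1.89. Among the ranked falls, Nfe2, a factor of the erythroid and megakaryocyte lineages, measured 9.06, 9.26 and 9.31 in the blood arrays and 7.12, 6.64 and 5.16 in the P1 arrays. It was lower in all P1 arrays, most in replicate 3, and fell by 2.90 (SE 0.28, adjusted p = 1.6e-08). Tmem229b, a membrane protein gene, measured 8.22, 8.43 and 8.38 in the blood arrays and 5.24, 5.26 and 4.55 in the P1 arrays and fell by 3.32 (SE 0.54, adjusted p = 7.2e-05), 10-fold. Calhm2, a channel gene, fell by 3.20 (SE 0.33, adjusted p = 5.5e-08). Gm12250, an immunity-related GTPase gene, fell by 3.08 (SE 0.40, adjusted p = 2.5e-06). Klrb1f, of the NK receptor family, fell by 2.96 (SE 0.29, adjusted p = 2.1e-08), and Arhgef37 and B430306N03Rik differed by -2.91 and -2.96.

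The largest rises of genes set apart were Dcn, Sparc, Mt2, Emp1 and Mgp. Dcn, the matrix proteoglycan decorin of fibroblasts, measured 4.23, 4.39 and 4.21 in the blood arrays and 10.13, 12.45 and 10.94 in the P1 arrays, high in all P1 arrays and highest in replicate 2. Sparc, a collagen-binding matrix protein, measured 5.00, 4.96 and 4.52 in the blood arrays and 10.44, 12.69 and 11.35 in the P1 arrays. Emp1, an epithelial membrane protein, measured 4.66, 4.78 and 4.67 in the blood arrays and 10.56, 10.82 and 10.25 in the P1 arrays, even across P1, and Mgp, which keeps matrix free of mineral, 4.17, 4.18 and 3.93 in the blood arrays and 8.82, 11.72 and 8.32 in the P1 arrays. In all 40 of 48 fibroblast genes rose and 0 fell (26 without replicate 2 of P1), and 17 of 42 keratinocyte genes rose and 0 fell (13 and 0 without replicate 2 of P1). Krt10, a keratin of upper epidermis, measured 4.66, 4.25 and 4.79 in the blood arrays and 8.74, 10.28 and 9.39 in the P1 arrays, and Krt14, of the basal layer, rose by 3.97 (SE 0.42, adjusted p = 6.1e-08). Of 20 cartilage genes 4 rose, with Chad, a cartilage leucine-rich protein, at 9.20, 9.73 and 6.48 in P1, low in replicate 3. Endothelial genes gave 4 rises among 24, pericyte genes 2 among 12, and melanocyte and Schwann cell genes 1 among 12. The lists of skeletal muscle, adipocytes, T cells and mast cells gave 0 called genes. B cell genes gave 1 rise and 1 fall among 14, NK cell genes 1 rise among 15, dendritic cell genes 1 rise and 3 falls among 21, and erythroid and platelet genes 1 rise and 2 falls among 12. The part of these cells in the results on myeloid genes was not tested beyond the fits with and without replicate 2 of P1 and with the covariates. The covariates cannot decide it, since both means were higher in every P1 array than in every blood array.

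P1 was next set against the mean of the 5 other untreated dermal groups, which came through the same digestion and share the P1 arrays with the first comparison. Here 929 genes were higher in P1 (4.66%) and 1224 lower (6.14%), 10.8% in all, with a median difference of 0.02 over all genes. Without replicate 2 of P1 659 were higher (3.31%) and 1075 lower (5.39%), and with array medians centred 26.3% of calls were higher against 43.1% here. Monocyte genes were higher in 21 of 33 members and lower in 0, with a median of 1.65. Chil3 averaged 11.11 in blood, 10.76 in P1 and 4.31 to 9.31 in the group means of the other dermal cells, and P1 exceeded their mean by 5.13 (SE 0.40, adjusted p = 1.3e-10). Treml4 was at low signal in the mean of the other groups (adjusted p = 5.3e-14), and Itgal exceeded its own mean there by 3.35 (SE 0.20, adjusted p = 5e-13) and Plac8 by 5.45 (SE 0.48, adjusted p = 1.7e-09). Trem1 stood above both blood and the mean of the other dermal groups (3.06, SE 0.31, adjusted p = 3.9e-08). So did Arg2 (2.21, SE 0.29, adjusted p = 2.3e-06), Mefv (1.74, SE 0.24, adjusted p = 7.5e-06), Clec4e (1.07, SE 0.21, adjusted p = 0.00095), Il1r2 (1.18, SE 0.19, adjusted p = 4.8e-05) and Vegfa (1.18, SE 0.20, adjusted p = 9.8e-05). A rise over that mean need not hold against each group. Arg2 averaged 7.03 in P1 (6.67 to 7.35) and 6.08 in P2 (4.80 to 7.15), so their arrays overlapped. Slc44a2, a choline transporter-like protein, and Plcb1, a phospholipase C, were higher than in the other dermal groups, Slc44a2 by 2.89 and Plcb1 from a low signal, and lower than in blood (-1.28 and -0.81). Nfe2 was higher than in the other dermal groups by 1.91.

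Resident macrophage genes were lower in P1 than in the other dermal groups for 30 of 34, with 0 higher and a median of -2.54. C1qb and C1qc differed by -3.64 (SE 0.35, adjusted p = 9.1e-09) and -3.60 (SE 0.33, adjusted p = 3.7e-09), Ccl24, an eosinophil attractant, by -3.12 (SE 0.25, adjusted p = 2.8e-10), and Cd163 by -5.78 (SE 0.27, adjusted p = 1.5e-15). Tmem176a, an ion channel gene of dendritic cells, was lower than in blood and than in the other dermal groups (-1.18 and -2.57). Ephx1, an epoxide hydrolase, differed by -2.55 (SE 0.39, adjusted p = 2.6e-05), and its rise over blood was not called without replicate 2 of P1 (0.12). Igf1 differed by -2.50 (SE 0.35, adjusted p = 8.5e-06). Genes of MHC class II presentation were lower in 7 of 10, H2-Eb1 with a difference of -2.80 (SE 0.10, adjusted p = 9.7e-18). Proliferation genes were lower in 23 of 39 and higher in 0, Top2a with a difference of -2.31 (SE 0.19, adjusted p = 5.1e-10).

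Against the other dermal groups, interferon-stimulated genes were higher in P1 in 21 of 54 and lower in 5 (median 0.41). Ifit3 was at 10.28 in blood, 7.54 in P1 and 5.06 to 6.97 in the other dermal groups, a difference of 1.14 (SE 0.34, adjusted p = 0.029) from their mean. Oas3 exceeded that mean by 1.86 (SE 0.22, adjusted p = 5.7e-07) and Slfn1 by 3.23 (SE 0.39, adjusted p = 6e-07), whereas Usp18 was lower (-1.01, SE 0.22, adjusted p = 0.002) and Cmpk2 was not called (0.38). Il6 was not called against the other dermal groups (0.05, SE 0.36, adjusted p = 0.97), nor was Cxcl2 (-0.49, SE 0.28, adjusted p = 0.34). Il10, Il1a and Ccl7 were lower, with differences of -1.66 (SE 0.26, adjusted p = 4.3e-05), -1.42 (SE 0.29, adjusted p = 0.0011) and -1.99 (SE 0.35, adjusted p = 0.00017), and chemokines as a list were lower in 16 of 29 and higher in 3. Metallothionein Mt1 was lower (-0.83, SE 0.15, adjusted p = 0.00029), and Cd63 was not called (-0.41, SE 0.22, adjusted p = 0.28). Fibroblast genes were higher in P1 for 25 of 48, and keratinocyte genes for 0 of 42 with 3 lower.

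**Figure D5:**
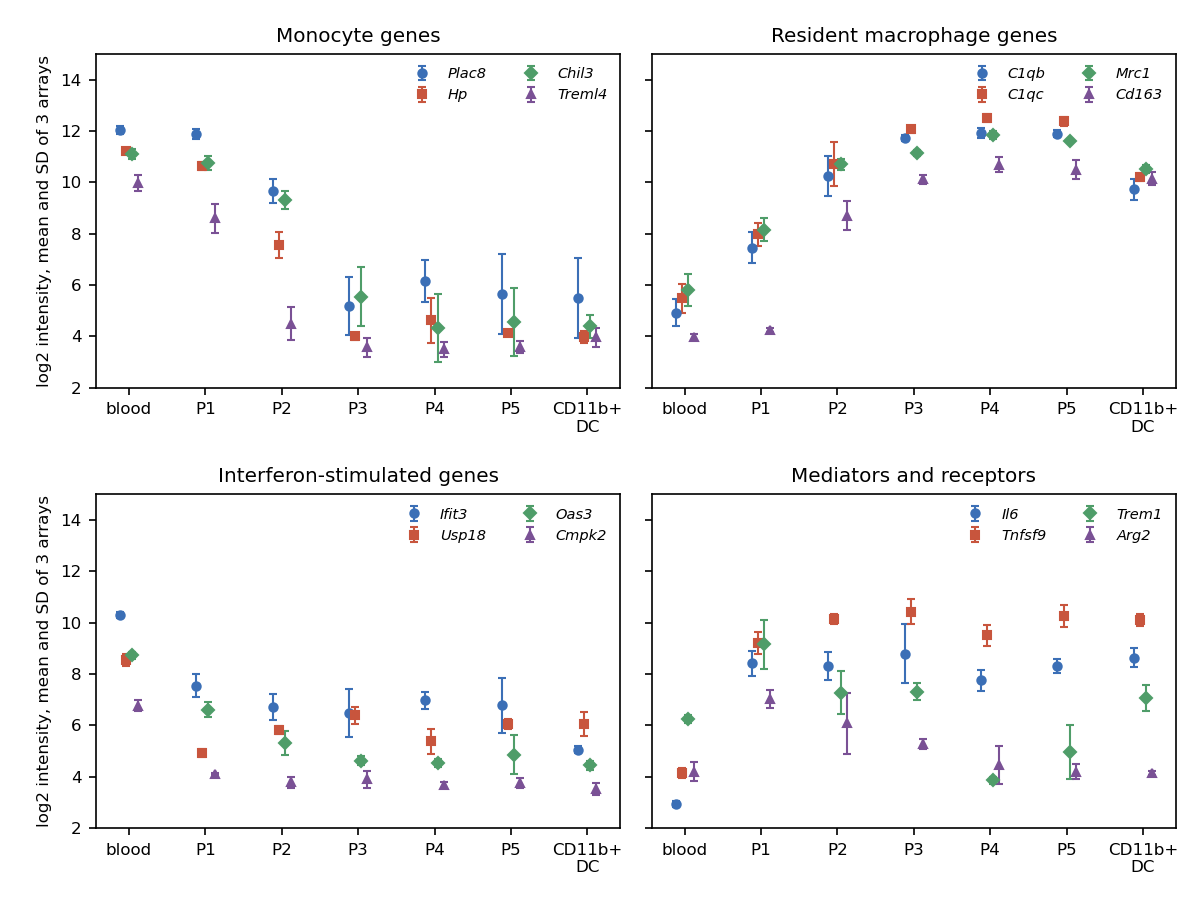
Group means with SD over 3 arrays (vertical axes, log2 intensity) for 16 genes in blood monocytes and the 6 untreated dermal groups (horizontal axes). Plac8 and Hp are near the blood level in P1 and fall off in the other groups, Ifit3 and Oas3 lie between blood and the rest in P1, and Il6 is high in all dermal groups.

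In the 2 arrays of P1 from skin painted 3 days earlier with the sensitiser DNFB, for which the CD24 gate is not stated, Usp18 was at 6.53 (SD 0.21, n = 2), Il6 at 8.13 (SD 0.16, n = 2) and Plac8 at 12.06 (SD 0.03, n = 2). At steady state these were 4.92, 8.41 and 11.88, and the difference was not tested here.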

How the data were processed

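RNA of sorted cells was hybridised to 1-colour Affymetrix MoGene arrays, 38 in all. The authors deposited log2 intensities, made with RMA (background correction, quantile normalization and probe summary) in affy, per the submitters' processing notes, with versions not given in the sources used here. RMA compresses low intensities, so differences from a low signal have no exact size. Of 34760 probe sets, 21640 had 1 gene symbol, 1321 had several and 11799 none. Symbols were matched to RefSeq for 21553 probe sets, and for the 954 genes with several probe sets the one with the highest mean over all arrays was kept, giving 19937 genes. A model with 1 mean per group was fitted to all 38 arrays with limma 3.58.1 in R 4.3.3, and p-values were adjusted by Benjamini-Hochberg over all genes. The other dermal reference is the mean of 5 group means. The number of arrays limits the precision. On simulated data of this design the fit recovered 75 of 100 genes changed 2-fold and 96 of 100 changed 4-fold between P1 and blood, with 12 unchanged genes called. The simulated arrays had normal noise of equal spread in all groups and no skin cell RNA. The P1 arrays here were less alike than the blood arrays and held such RNA unevenly, so these counts do not carry over to them. The SEs and p-values rest on 1 spread per gene, estimated between pools of mice within all 13 groups. An SE can therefore be larger or smaller than the 6 arrays of P1 and blood alone would give. The arrays fall into 3 chip batches, per the labels, which do not say which array was in which, so no batch term was fitted.

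The members and gene lists were chosen with earlier results of these data known. Genes named are the sort markers, list members, the 12 largest rises and 12 largest falls among called genes with no overlap that were not set apart, 6 and 6 against the other dermal groups among genes also called against blood, and the 5 largest rises set apart. Same-numbered replicates of P1 and blood did not deviate together, so no pairing was used. Alternatives changed the normalization, low-value filter, probe set choice, variance model, arrays in the fit, replicate block, skin cell covariates and threshold. Figures were drawn with matplotlib 3.10.9.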

Additional observations from a re-analysis of the deposited data

Results flagged for a closer look

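Probe sets outside the gene comparison also differed between P1 and blood. Fitted with all others, 26 of the 1321 probe sets with several gene symbols were higher in P1 and 52 lower, and of the 11799 without a symbol, which include array controls, 184 were higher and 169 lower. In that fit 1144 of all 34760 probe sets were higher and 1496 lower. Both classes were thus called less often than probe sets as a whole. These probe sets of several symbols or none were not assigned to genes.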

How the results depend on the processing

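Against 1038 higher and 1482 lower genes in P1 compared with blood, fitting only the 6 arrays gave 461 and 882, the keratinocyte and fibroblast means as covariates 257 and 192, and a further minimum difference of 1 on the log2 scale 639 and 787. Leaving out 1 array gave 698 to 1213 higher and 967 to 1448 lower genes, with the lowest count of lower genes, 967, without P1 replicate 3. Against the other dermal groups (929 higher and 1224 lower), the higher count was 553 with array medians centred, 615 with array weights and 499 with only the compared groups, and the minimum difference left 326 and 509. Leaving out 1 array there gave 659 to 948 higher and 742 to 1329 lower genes, the 742 lower genes again without P1 replicate 3. The other alternatives moved these counts by smaller factors. Named genes called in the main fit or in the alternative kept their direction, except Cxcl12, Cxcl14 and Tgfb3. The differences of these genes from blood were -0.45, -0.21 and -0.56 with the covariates. Changes of sign in named genes called in neither fit were not counted. The cause was not tested. Of 215 genes named in the text and called against blood, the covariates ended the call of 113. Since both covariates were higher in every P1 array than in every blood array, such a loss does not tie a gene to skin cell RNA. Replicate numbers did not pair the samples (r of deviations 0.02, 0.00 and 0.09 for equal numbers), and a replicate block by title number gave 1042 higher and 1463 lower genes against blood and 926 and 1223 against the other dermal groups. Genes at or under a log2 intensity of 4.02 have no measured size of change, and digestion, tissue and population cannot be told apart.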
